A study of Mus musculus with 12 samples.

Results

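The 44 genes described here encode the proteins that license DNA replication origins and run the replication fork. They were taken by name, by a rule that uses no measured value, from 24343 genes with a unique name, and all 44 were found. The list was chosen with earlier results of these data known. RNA was sequenced from 12 libraries of HT22, a mouse line that was immortalized from hippocampal neurons, in 4 groups of 3 biological replicates. Cells received negative control siRNA (siControl) or an siRNA against Ncoa4 (siNCOA4), each alone or together with deferoxamine (DFO), an iron chelator, at 100 µM for 24 h. The groups are called siControl, siNCOA4, siControl+DFO and siNCOA4+DFO. The study reported lower viability and altered morphology of cells given both treatments, and no effect on viability of either alone. The part of this in the siNCOA4+DFO values was not tested. NCOA4 is the receptor that delivers ferritin to the lysosome for iron release, so the design targets iron supply from stores, from import, or from both. The RNA values do not measure cellular iron. All values come from 1 cell line, and the knockdown used 1 siRNA, so that an effect of NCOA4 loss and an off-target effect of that siRNA cannot be told apart.

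In proliferating cells, replication is prepared before it starts. In late mitosis and G1, the origin recognition complex (ORC), CDC6 and CDT1 load the MCM2-7 helicase onto DNA, a step called licensing, which geminin (Gmnn) restrains by binding CDT1. At S phase entry, the kinase CDC7 with its subunit DBF4, together with MCM10, CDC45 and the GINS complex, turns the loaded helicase into an active fork, and polymerase alpha-primase, polymerases delta and epsilon, the clamp PCNA with its loader RFC, and replication protein A then copy and protect the strands. Transcription of many of these genes is driven by E2F factors as cells approach S phase. Several fork enzymes carry an iron-sulfur cluster, among them the primase subunit PRIM2, the catalytic polymerase subunits POLD1 and POLE, and the nuclease-helicase DNA2, while iron is also the cofactor of ribonucleotide reductase, which makes deoxynucleotides.

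Expression was read in FPKM, a fragment count divided by transcript length and library size, so that levels of different genes can be set beside each other per length. The FPKM keep no read totals, and no counting interval can be given. FPKM summed to between 565558 and 737313 per library, and small RNA genes held 36.2% to 41.0% of the sum without DFO, 42.1% to 45.8% in siControl+DFO and 47.9% to 52.1% in siNCOA4+DFO. Replicate 3 of siNCOA4+DFO stood somewhat apart in its correlation with the other libraries of its group. Across the genes tested, r was 0.926 and 0.934, against 0.947 to 0.955 for pairs in the other groups. Its count of lowest values in its group, 23 of the 44 genes, did not set it apart. Replicate 1 of siControl was lowest for 22 and replicate 3 of siControl+DFO for 20. Ncoa4 itself was at 6.46, 6.19 and 6.02 FPKM in siControl and at 8.70, 8.31 and 7.52 in siControl+DFO. It was at 0.770, 0.952 and 0.891 FPKM in siNCOA4 and at 0.850, 1.29 and 1.57 in siNCOA4+DFO, so every siNCOA4 library lay below every siControl library. Of 11 neuronal markers, 8 stayed under 0.5 FPKM in every library, Rbfox3, Map2 and Snap25 being listed at 0 in siControl, and the summed level of the list was 8.16 to 9.39 in siControl, 6.08 to 7.85 in siNCOA4, 12.3 to 13.8 in siControl+DFO and 5.77 to 9.83 in siNCOA4+DFO, mostly from Tubb3. Of 11 markers of other cell types, the fibroblast collagens Col1a1 and Col1a2 made up nearly the whole sum, which was 1252 to 1546 in siControl, 709 to 914 in siNCOA4, 343 to 458 in siControl+DFO and 390 to 466 in siNCOA4+DFO. The part of these shifts in the values below was not tested. In bulk RNA a smaller share of cells in a given cell cycle phase and less RNA per cell cannot be told apart.

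In siControl cells the replication genes were expressed over a wide range of levels. Mcm7 was highest, with 109 FPKM on average, followed by Mcm6 with 107, Pcna with 99.4, Rpa1 with 92.1 and Mcm4 with 91.6. The siControl libraries of Mcm7, at 107 to 111 FPKM, and of Mcm6, at 105 to 111, overlapped, so their order is within the spread. Orc3, at 4.14 to 4.82 FPKM, Orc5, at 4.44 to 7.21, and Dna2, at 8.06 to 10.2, were the lowest. All 44 genes passed the filter for testing, which asked for 0.5 FPKM or more in 3 libraries or more and which 11924 genes met. Differences are given on the log2(FPKM + 0.1) scale, and a gene is said to rise or fall where its limma p-value, adjusted by the Benjamini-Hochberg method over all genes tested, was below 0.05.

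DFO alone moved the replication genes in both directions, with Orc1, Cdt1 and Cdc6 among the rises and the polymerase delta genes Pold2 and Pold1 among the falls. Between siControl+DFO and siControl, 16 of the 44 genes (36.4%) rose and 10 (22.7%) fell, while 27.7% of all genes tested rose and 25.7% fell. The median log2 difference was 0.08 over the 44 genes and -0.01 over all genes. With a fold change above 2 in addition, Orc1 and Cdt1 rose and Pold2 fell, against 11.1% of all genes rising and 7.76% falling by that rule. When libraries were instead scaled to an equal sum of FPKM, which put the median of all genes at -0.17 log2 units here, 13 members rose and 17 fell. Of the 26 members that changed, 20 kept their call when any 1 library was left out; Orc4, Mcm5, Dbf4, Rfc2, Rpa1 and Rpa3 did not.

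**Figure D1:**
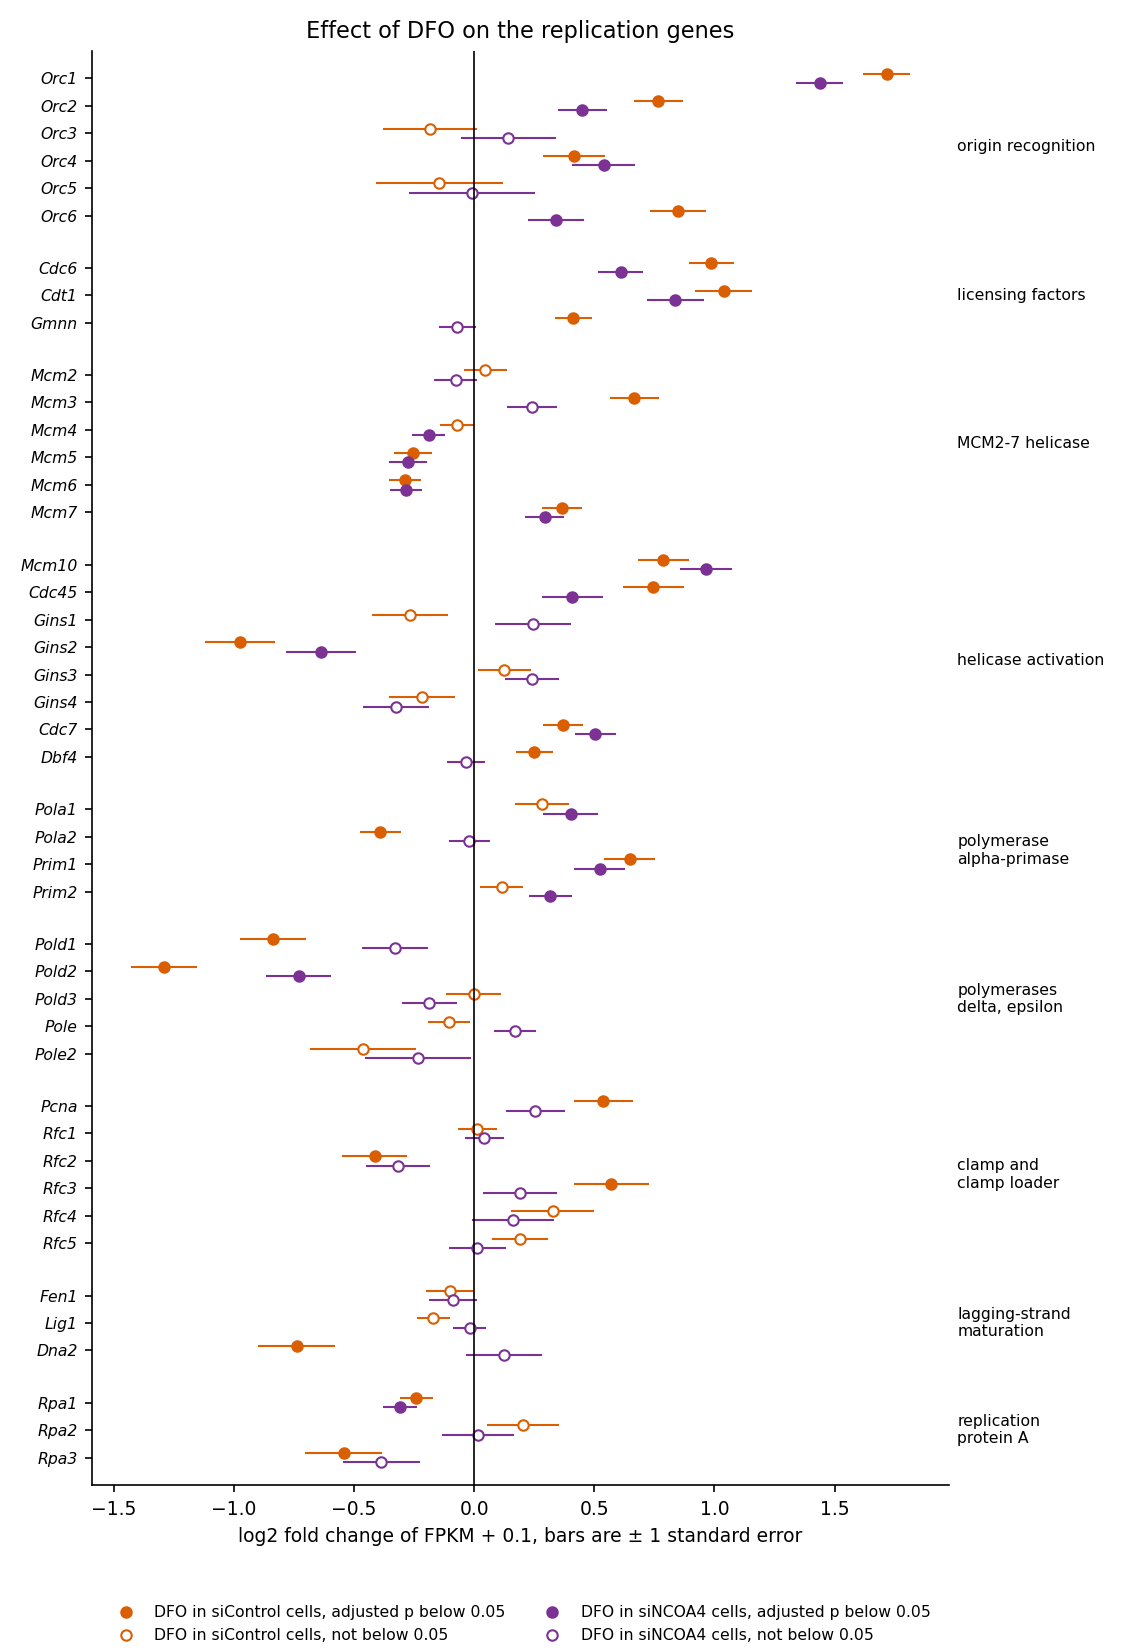
Log2 fold change (x axis, bars ± 1 standard error) of each of the 44 replication genes (y axis, grouped by role) after DFO, in siControl cells (orange, siControl+DFO against siControl) and in siNCOA4 cells (purple, siNCOA4+DFO against siNCOA4), from 3 libraries per group; filled points have an adjusted p below 0.05. Orc1 lies farthest to the right at 1.72 and 1.44, Pold2 farthest to the left at -1.29 and -0.73, and the 6 MCM2-7 genes lie on both sides of 0.

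Of the 44 genes, Orc1, Cdt1, Cdc6 and Orc6 rose most. Orc1, the ATPase subunit of ORC whose level cycles with the cell cycle, was at 16.1, 18.3 and 20.5 FPKM in siControl and at 60.0, 64.5 and 55.7 in siControl+DFO. Its groups did not overlap, and the rise was 3.29-fold (log2 difference 1.72, SE 0.10, adjusted p = 4.2e-08). Cdc6, the loading factor that joins ORC on DNA, went from 16.9, 16.5 and 16.4 to 31.3, 34.7 and 33.1 FPKM (log2 difference 0.99, SE 0.09, adjusted p = 2.9e-06). Cdt1, its partner in helicase loading, went from 49.4, 41.1 and 39.9 to 86.2, 94.4 and 86.5 FPKM (log2 difference 1.04, SE 0.12, adjusted p = 1.4e-05). Every siControl+DFO library lay above every siControl library for both genes. Gmnn, the inhibitor of CDT1, was at 47.9, 54.6 and 50.9 FPKM without and at 69.2, 68.6 and 66.2 with DFO, again without overlap (log2 difference 0.41, SE 0.08, adjusted p = 0.00073).

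The other ORC genes were divided. Orc6 rose from 35.1, 42.6 and 37.6 to 72.9, 72.8 and 62.2 FPKM (log2 difference 0.85, SE 0.12, adjusted p = 6.2e-05). Orc2 rose from 14.2, 16.5 and 15.5 to 28.4, 23.2 and 27.4 FPKM (log2 difference 0.77, SE 0.10, adjusted p = 5.0e-05), and Orc4 by 0.42 log2 units (SE 0.13, adjusted p = 0.018). Neither Orc3, with a log2 difference of -0.18 (SE 0.20), nor Orc5, with -0.14 (SE 0.26), passed the test, and these are the least expressed members. In all, 4 of 6 ORC genes and 3 of 3 licensing factors rose and none of either group fell. Of all genes tested, 27.7% rose and 25.7% fell. Part of the Orc2 gene, 29.8% of its exonic bases, overlaps Nif3l1 on the other strand, and for Orc1 10.8% overlaps Gm12743. Since the strand setting used in counting is not given in the sources used here, reads from such partners cannot be told apart. Nif3l1 was at 5.63 FPKM on average in siControl and 5.37 in siControl+DFO.

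**Figure D2:**
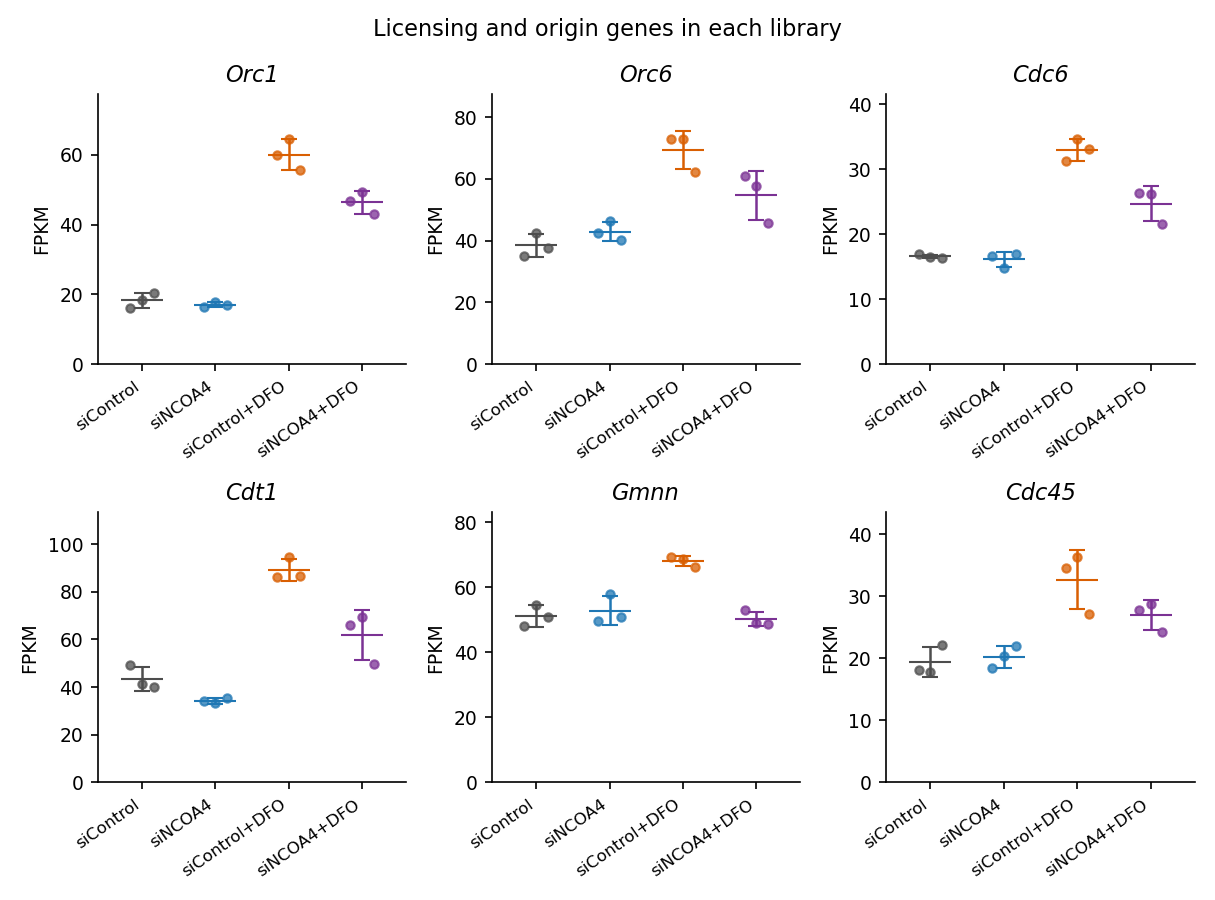
FPKM (y axis, from 0) of Orc1, Orc6, Cdc6, Cdt1, Gmnn and Cdc45 in each of the 12 libraries (points, in replicate order within each of the 4 groups), with the group mean (horizontal line) and SD (bars). For each gene the siControl+DFO libraries lie above all siControl libraries, and for Gmnn the siNCOA4+DFO libraries, at 48.7 to 52.8, lie in the range of the libraries without DFO.

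The start regions of these genes were searched for E2F letters because the licensing genes rose together. RefSeq promoters of 300 bases, from 250 bases before to 50 after the annotated start on GRCm38.p6, matched 36 of the 44 genes; Gmnn, Mcm4, Gins1, Gins2, Gins4, Prim2, Pole and Rfc2 were not examined. The words searched, on both strands, were TTTCCCGC, TTTCGCGC, TTTGGCGC and TTTGCCGC. At least 1 of them stood in 15 of the 36 genes (41.7%), in 4.84% of 8996 tested genes with such a promoter and in 2.61% of all 27025. By response to DFO alone, the words were present in 6 of 15 genes that rose (40.0%), 3 of 8 that fell (37.5%) and 6 of 13 that did neither (46.2%). Among the rising ORC and licensing genes examined, Orc1, Cdc6 and Cdt1 held a word and Orc2, Orc4 and Orc6 held none. The letters CCAAT, on either strand, stood in 58.3% of the 36 genes and in 44.01% of the tested genes. By response to DFO alone, CCAAT was present in 11 of 15 genes that rose (73.3%), 5 of 8 that fell (62.5%) and 5 of 13 that did neither (38.5%). These differences were not tested. A match of letters is a description of these windows and not a binding site. The 5 promoters below are those of the gene that rose most (Orc1), of Cdc6, of the falling helicase gene with most E2F words (Mcm6), and of Mcm10 and Pold2, which hold no complete word. The Mcm10 window ends in TTTGGCG, which is TTTGGCGC without its last letter, so a word cut by the window edge would be missed. The 5 were chosen after their values were seen, and capitals mark the E2F words on either strand. The Orc1 window is chr4:108579204-108579503 on the plus strand, with its word beginning 27 bases upstream of the start. The Cdc6 window is chr11:98907901-98908200 on the plus strand, with its word 138 bases upstream of the RefSeq start. Mcm6 has chr1:128359656-128359955 on the minus strand, with words 110, 106 and 47 bases upstream, of which those at 110 and 106 overlap. Mcm10 has chr2:5012742-5013041 and Pold2 chr11:5878207-5878506, both on the minus strand. Another Pold2 window, chr11:5877614-5877913, held no word either. All are written 5′ to 3′ along the gene. In the GENCODE M21 annotation of GRCm38, Orc1 itself spans chr4:108579423-108614833, Cdc6 chr11:98907801-98923940, Mcm6 chr1:128331590-128359664, Mcm10 chr2:4989714-5012791 and Pold2 chr11:5872180-5878292. The Cdc6 window thus lies wholly downstream of the GENCODE start of the gene, and its word is upstream only of the RefSeq start.
Orc1: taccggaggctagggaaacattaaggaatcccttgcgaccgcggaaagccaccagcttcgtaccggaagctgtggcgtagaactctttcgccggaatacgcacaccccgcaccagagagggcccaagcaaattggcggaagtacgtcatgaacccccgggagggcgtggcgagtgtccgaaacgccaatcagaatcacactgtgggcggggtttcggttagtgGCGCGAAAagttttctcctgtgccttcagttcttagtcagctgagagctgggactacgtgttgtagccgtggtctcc
Cdc6: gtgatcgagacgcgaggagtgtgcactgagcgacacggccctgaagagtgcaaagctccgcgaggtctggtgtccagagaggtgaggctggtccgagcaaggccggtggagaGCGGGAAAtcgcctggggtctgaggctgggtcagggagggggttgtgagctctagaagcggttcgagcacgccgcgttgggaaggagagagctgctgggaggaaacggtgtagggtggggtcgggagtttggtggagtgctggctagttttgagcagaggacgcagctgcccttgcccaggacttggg
Mcm6: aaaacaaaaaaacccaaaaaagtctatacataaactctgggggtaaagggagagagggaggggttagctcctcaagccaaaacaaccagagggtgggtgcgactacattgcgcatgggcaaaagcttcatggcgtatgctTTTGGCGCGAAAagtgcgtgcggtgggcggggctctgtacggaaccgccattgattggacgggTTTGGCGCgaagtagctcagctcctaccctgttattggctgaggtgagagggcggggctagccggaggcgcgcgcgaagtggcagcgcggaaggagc
Mcm10: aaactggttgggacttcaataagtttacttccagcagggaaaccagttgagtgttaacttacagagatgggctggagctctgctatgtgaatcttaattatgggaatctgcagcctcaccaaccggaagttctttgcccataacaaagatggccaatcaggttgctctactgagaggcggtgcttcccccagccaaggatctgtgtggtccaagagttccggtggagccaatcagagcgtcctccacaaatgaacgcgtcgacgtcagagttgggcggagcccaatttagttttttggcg
Pold2: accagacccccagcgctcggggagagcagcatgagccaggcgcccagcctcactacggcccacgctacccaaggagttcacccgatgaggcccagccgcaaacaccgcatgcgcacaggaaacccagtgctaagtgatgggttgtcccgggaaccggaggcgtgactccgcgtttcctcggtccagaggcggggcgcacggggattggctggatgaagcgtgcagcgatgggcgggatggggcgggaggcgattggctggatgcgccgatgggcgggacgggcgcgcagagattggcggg

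Genes of the MCM2-7 ring, whose products assemble in equal numbers into 1 hexamer, did not move together under DFO. Mcm3 rose from 77.7, 78.0 and 77.6 to 126, 128 and 118 FPKM (log2 difference 0.67, SE 0.10, adjusted p = 0.00017). Mcm7 rose from 107, 109 and 111 to 149, 141 and 133 FPKM (log2 difference 0.36, SE 0.08, adjusted p = 0.0027), a call that was lost with the equal-sum scaling. Mcm6 fell from 111, 106 and 105 to 89.6, 84.5 and 89.3 FPKM (log2 difference -0.29, SE 0.07, adjusted p = 0.0031), and its promoter, printed above, holds 3 E2F words. Mcm5 fell by 0.26 log2 units (SE 0.08, adjusted p = 0.016). Mcm2, with a log2 difference of 0.05 (SE 0.09), and Mcm4, with -0.07 (SE 0.07), did not pass the test. In the siControl+DFO cells the mean levels of the ring genes thus ran from 42.8 FPKM for Mcm5 to 141 for Mcm7, where in siControl they ran from 51.1 to 109. Of the Mcm7 transcript's 75-base windows, 9.49% also occur in another gene, so that reads there could be assigned to either, and the microRNA genes Mir106b, Mir93 and Mir25 lie within its span.

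Among the genes that turn the loaded helicase into a fork, 4 of 8 rose and 1 fell. Over all genes tested, 27.7% rose and 25.7% fell. Mcm10, which is needed for the ring to open and move, went from 21.3, 19.6 and 21.1 to 39.5, 34.9 and 33.2 FPKM (log2 difference 0.79, SE 0.11, adjusted p = 6.3e-05). Cdc45, the helicase partner, went from 18.2, 17.9 and 22.2 to 34.6, 36.3 and 27.2 FPKM (log2 difference 0.75, SE 0.13, adjusted p = 0.00035). The kinase genes Cdc7 and Dbf4 rose by 0.37 and 0.25 log2 units (adjusted p = 0.0026 and 0.017). The GINS subunit Gins2 fell instead, from 30.4, 38.7 and 39.9 to 21.5, 18.3 and 15.6 FPKM, with no overlap (log2 difference -0.98, SE 0.14, adjusted p = 0.00012). The other 3 GINS genes did not pass the test, with log2 differences of -0.27 for Gins1, 0.13 for Gins3 and -0.22 for Gins4. Of the exonic bases of Gins2, 67.3% overlap Gse1 on the other strand; Gse1 was at 3.82 to 4.52 FPKM in siControl and at 12.03 to 15.29 in siControl+DFO, a rise (log2 difference 1.62, adjusted p = 1.03e-05) where Gins2 fell.

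At the fork itself, the polymerase delta genes Pold1 and Pold2 fell while a primase gene and the clamp gene rose. Pold2, the accessory subunit that tethers the catalytic subunit, went from 36.1, 36.2 and 35.3 to 12.6, 16.7 and 14.8 FPKM, the largest fall of the 44 genes (log2 difference -1.29, SE 0.14, adjusted p = 7.7e-06). Pold1, the catalytic subunit, went from 20.2, 16.9 and 17.4 to 10.1, 10.9 and 9.40 FPKM (log2 difference -0.84, SE 0.14, adjusted p = 0.00027). Every siControl+DFO library lay below every siControl library for both. Pold3, a further delta subunit, had a log2 difference of 0.00 (SE 0.11, adjusted p = 0.99). The smallest delta subunit gene, Pold4, which is outside the 44 genes and was chosen after its values were seen, rose from 13.0, 13.9 and 12.3 to 32.8, 25.0 and 22.6 FPKM (log2 difference 1.02, SE 0.18, adjusted p = 0.00054). The epsilon genes Pole, with -0.11 (SE 0.09), and Pole2, with -0.46 (SE 0.22), did not pass the test. Of polymerase alpha-primase, the primase catalytic subunit gene Prim1 rose from 41.7, 45.0 and 52.8 to 74.5, 75.6 and 67.5 FPKM (log2 difference 0.65, SE 0.11, adjusted p = 0.00027), and the accessory subunit gene Pola2 fell by 0.39 log2 units (SE 0.09, adjusted p = 0.0021). Pola1 and Prim2 did not pass, with log2 differences of 0.28 (SE 0.11) and 0.11 (SE 0.09).

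The clamp gene Pcna rose from 82.1, 116 and 99.9 to 159, 140 and 131 FPKM (log2 difference 0.54, SE 0.12, adjusted p = 0.0028), and Pcna-ps2 holds 13.8% of its 75-base windows too. Of the 5 clamp loader genes, Rfc3 rose by 0.57 (adjusted p = 0.0081), Rfc2 fell by 0.41 (adjusted p = 0.020) and Rfc1, Rfc4 and Rfc5 did not pass the test. The nuclease-helicase gene Dna2 fell from 10.2, 8.06 and 8.84 to 4.49, 5.53 and 6.14 FPKM (log2 difference -0.74, SE 0.16, adjusted p = 0.0019). Of the single-strand binding protein RPA, Rpa3 fell by 0.54 log2 units (SE 0.16, adjusted p = 0.013) and Rpa1 by 0.24 (SE 0.07, adjusted p = 0.012), and Rpa2 had a difference of 0.20 (SE 0.15, adjusted p = 0.28). The flap nuclease gene Fen1 and the ligase gene Lig1 did not pass, with -0.10 (SE 0.10) and -0.17 (SE 0.07). Genes on the other strand overlap 78.8% of the exonic bases of Fen1 (Gm10143), 15.1% of Rfc2 (Lat2), 12.7% of Rfc4 (Eif4a2) and 10.7% of Rfc5 (Wsb2), and 7.34% of the 75-base windows of Rpa3 also occur in Gm6195.

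In siNCOA4 cells, DFO moved fewer of the genes past the test than in siControl cells. The same held over all genes tested, with 42.7% passing in siNCOA4 cells and 53.4% in siControl cells. Orc1 lay at the upper and Pold2 at the lower end of the range. Between siNCOA4+DFO and siNCOA4, 13 of the 44 genes (29.5%) rose and 6 (13.6%) fell, while 23.1% of all genes tested rose and 19.6% fell. With a fold change above 2, Orc1 alone rose, against 7.59% of all genes rising. Orc1 was at 16.3, 17.7 and 17.1 FPKM in siNCOA4 and at 46.6, 49.4 and 43.0 in siNCOA4+DFO (log2 difference 1.44, SE 0.10, adjusted p = 4.4e-07). Cdt1 rose by 0.84 (SE 0.12, adjusted p = 0.00013), Cdc6 by 0.61 (SE 0.09, adjusted p = 0.00022), Mcm10 by 0.97 (SE 0.11, adjusted p = 2.2e-05) and Cdc7 by 0.50 (SE 0.08, adjusted p = 0.00043). Pold2 fell by 0.73 (SE 0.14, adjusted p = 0.0010) and Gins2 by 0.64 (SE 0.14, adjusted p = 0.0036). This comparison depended most on the scaling: with an equal sum of FPKM, which put the median of all genes at -0.30 log2 units, 5 members rose and 18 fell, and Orc1, Cdc6, Cdt1, Mcm10 and Cdc7 were the 5 that still rose. Quantile scaling gave 13 rising and 10 falling.

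Whether siNCOA4 changed the response to DFO was tested with the interaction, the DFO difference in siNCOA4 cells minus that in siControl cells. It passed for 1 of 44 genes, Gmnn, and for 2.1% of all genes tested; 12 of the 44 had an unadjusted p below 0.05, as did 2167 of the 11924 genes. Gmnn was at 49.6, 57.9 and 50.8 FPKM in siNCOA4 and at 52.8, 49.1 and 48.7 in siNCOA4+DFO, so that the DFO difference was 0.41 in siControl cells and -0.07 in siNCOA4 cells (interaction -0.48, SE 0.11, adjusted p = 0.044). That call was held when siNCOA4+DFO replicate 1 was left out and lost when any other library was, with adjusted p from 0.045 to 0.10. Dna2 had the largest interaction, 0.86 (SE 0.23, adjusted p = 0.071), which did not pass. For Orc1 (-0.28, adjusted p = 0.31), Cdt1 (-0.20, adjusted p = 0.57) and Pold2 (0.56, adjusted p = 0.15), the response to DFO was not shown to differ between siControl and siNCOA4 cells.

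Knockdown of Ncoa4 without DFO lowered a small number of the genes and raised none. Between siNCOA4 and siControl, Mcm5, Mcm6, Mcm7, Mcm10 and Lig1 fell, 5 of 44 genes (11.4%), while 4.52% of all genes tested rose and 7.21% fell. Counting both directions, 11.7% of all genes tested passed, so the share of the 44 genes was close to the background. Mcm10 was at 21.3, 19.6 and 21.1 FPKM in siControl and at 12.9, 11.9 and 10.0 in siNCOA4 (log2 difference -0.83, SE 0.11, adjusted p = 0.00045). Mcm7 was at 69.4, 69.5 and 75.2 FPKM in siNCOA4, below all siControl libraries (log2 difference -0.61, SE 0.08, adjusted p = 0.00059). Lig1, the ligase that seals Okazaki fragments, went from 74.1, 69.9 and 70.7 to 55.8, 52.6 and 51.5 FPKM (log2 difference -0.43, SE 0.07, adjusted p = 0.0022). These 3 calls were kept under every alternative except the fold change above 2, which none of them reached. The calls of Mcm5 (-0.29, SE 0.08, adjusted p = 0.033) and Mcm6 (-0.22, SE 0.07, adjusted p = 0.049) were not, the call of Mcm6 being lost when any of 11 libraries was left out. Under the equal-sum scaling, with the median of all genes at 0.12, 3 members rose (Gins2, Cdc7 and Dbf4) and 3 fell, and under quantile scaling 1 rose and 3 fell.

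**Figure D3:**
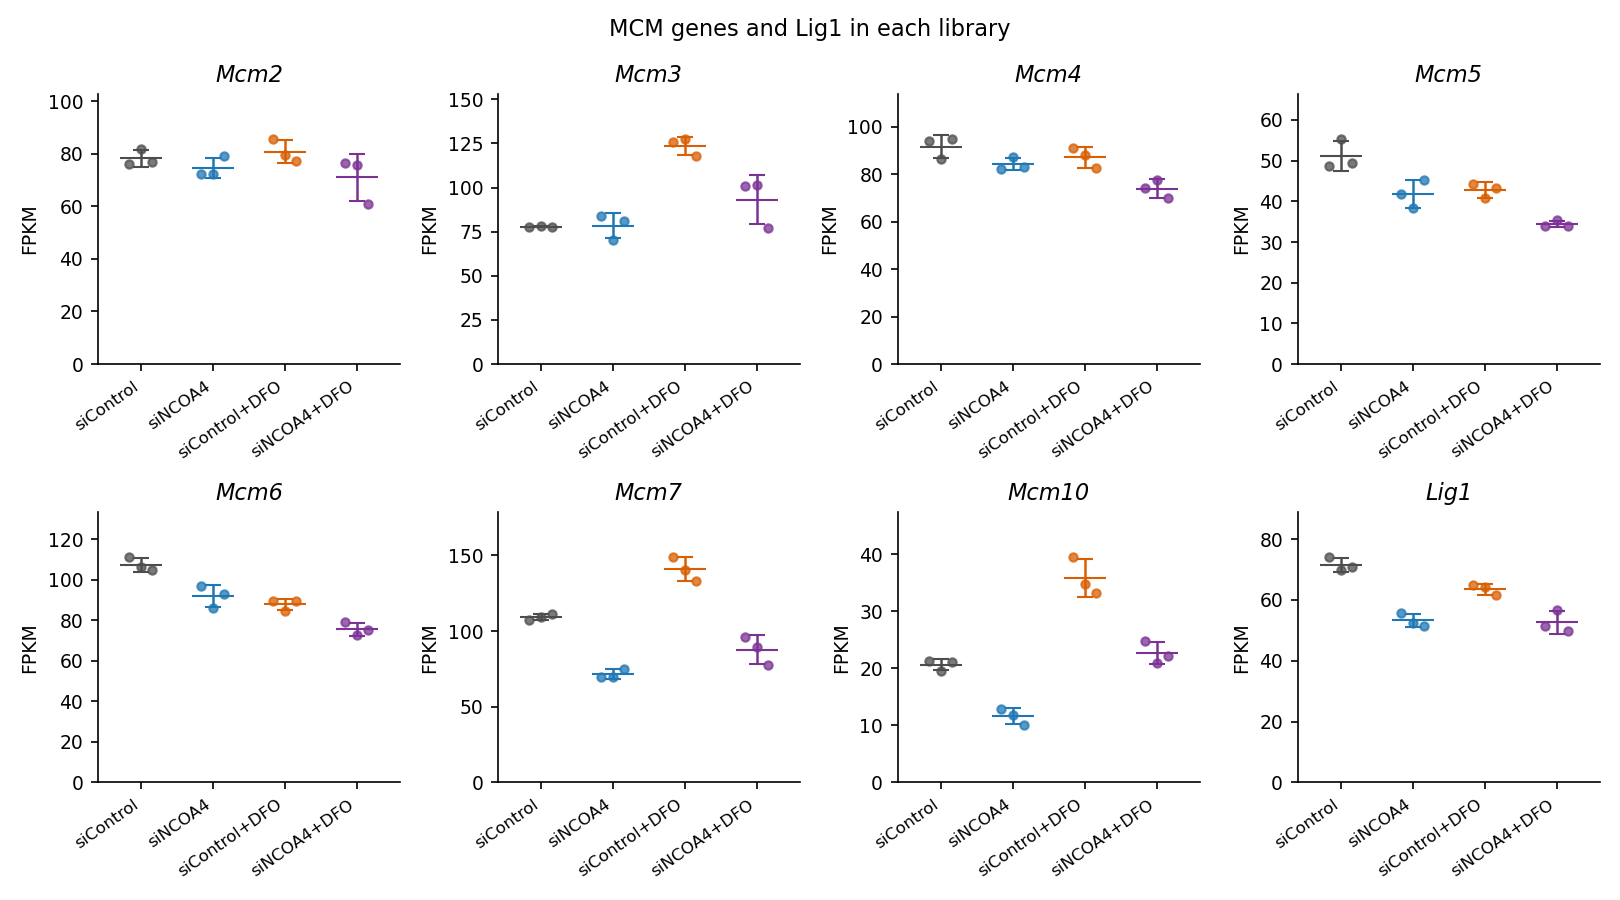
FPKM (y axis, from 0) of Mcm2 to Mcm7, Mcm10 and Lig1 in each of the 12 libraries (points, in replicate order within each of the 4 groups), with the group mean (horizontal line) and SD (bars). Mcm7 and Mcm10 are lower in siNCOA4 than in siControl and lower in siNCOA4+DFO than in siControl+DFO, without overlap, and Mcm6 is lowest in siNCOA4+DFO at 72.5 to 79.1.

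In DFO-treated cells, siNCOA4 lowered the 3 licensing factors and 5 of 6 MCM ring genes. Of the ring calls, only that of Mcm7 held when any 1 library was left out. Between siNCOA4+DFO and siControl+DFO, 11 of the 44 genes (25.0%) fell and 4 (9.09%) rose, while 10.2% of all genes tested fell and 6.22% rose. The median log2 difference was -0.07 over the 44 genes and -0.01 over all genes. The 3 licensing factors fell: Cdt1 from 86.2, 94.4 and 86.5 to 66.1, 69.4 and 49.8 FPKM (log2 difference -0.54, SE 0.12, adjusted p = 0.0095), Cdc6 by 0.42 (SE 0.09, adjusted p = 0.0097) and Gmnn by 0.44 (SE 0.08, adjusted p = 0.0033). Of the ring genes 5 of 6 fell, Mcm7 most, from 149, 141 and 133 to 96.4, 89.4 and 77.6 FPKM (log2 difference -0.69, SE 0.08, adjusted p = 0.00044), and Mcm2 had a difference of -0.19 (SE 0.09, adjusted p = 0.17). Mcm10 fell by 0.66 (SE 0.11, adjusted p = 0.0022), Orc1 by 0.37 (SE 0.10, adjusted p = 0.021) and Lig1 by 0.27 (SE 0.07, adjusted p = 0.018). Higher in siNCOA4+DFO were Gins2, at 27.7, 32.2 and 34.6 against 21.5, 18.3 and 15.6 FPKM (log2 difference 0.78, SE 0.14, adjusted p = 0.0043), Dna2 (0.69, SE 0.16, adjusted p = 0.013), Cdc7 (0.38, SE 0.08, adjusted p = 0.0095) and Prim2 (0.32, SE 0.09, adjusted p = 0.034).

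The number of calls in that comparison depended on single libraries. It was 8 without siControl+DFO replicate 1, 9 without siControl+DFO replicate 2 and 10 without siNCOA4+DFO replicate 3, and the calls of Cdc6, Cdt1, Gmnn, Mcm7, Mcm10, Gins2, Cdc7 and Dna2 were kept when any 1 library was left out. The calls of Orc1, Mcm3, Mcm4, Mcm5, Mcm6, Prim2 and Lig1 were not kept. Quantile scaling gave 5 genes rising and 5 falling.

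**Figure D4:**
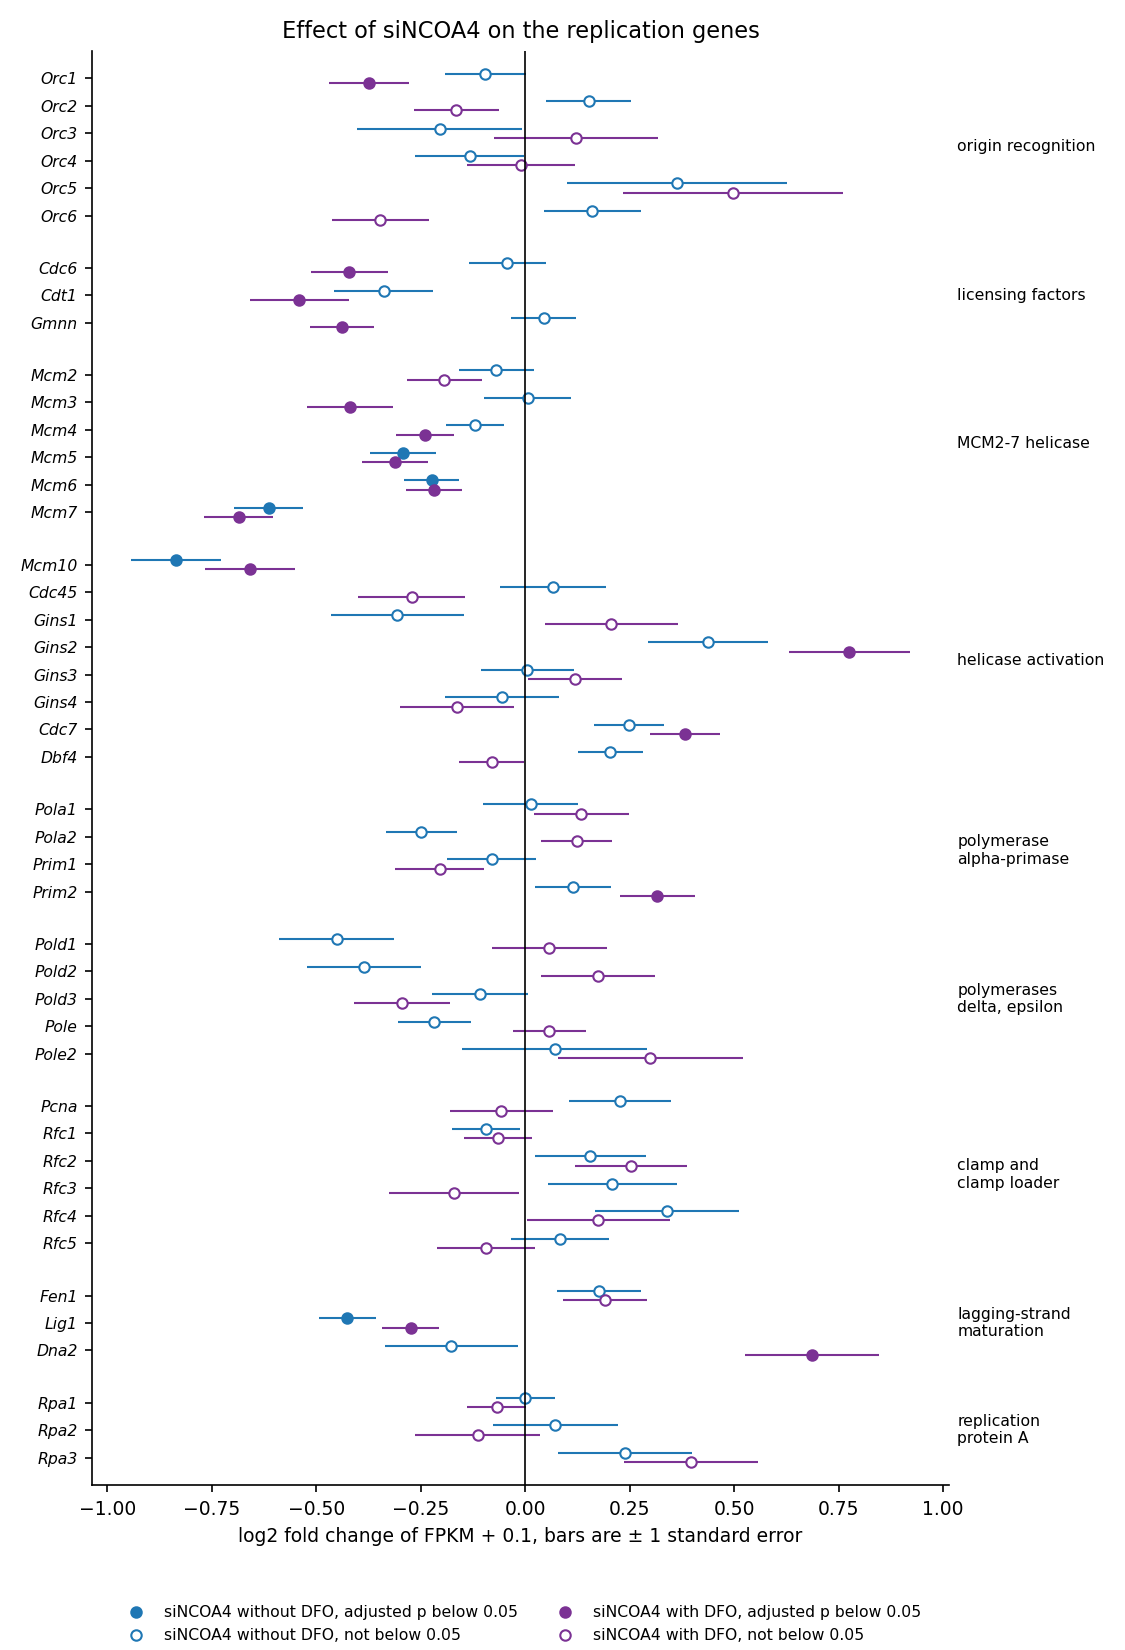
Log2 fold change (x axis, bars ± 1 standard error) of each of the 44 replication genes (y axis, grouped by role) after knockdown of Ncoa4, without DFO (blue, siNCOA4 against siControl) and with DFO (purple, siNCOA4+DFO against siControl+DFO), from 3 libraries per group; filled points have an adjusted p below 0.05. Mcm10 lies at -0.83 and -0.66 and Mcm7 at -0.61 and -0.69, while Gins2 lies at 0.44 and 0.78.

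Cells with both treatments were also compared with siControl cells, which received control siRNA and no DFO. In siNCOA4+DFO, 14 of the 44 genes (31.8%) rose and 11 (25.0%) fell, while 25.4% of all genes tested rose and 23.4% fell, so that the genes were close to the background. With a fold change above 2, Orc1 rose and Pold2 fell, against 9.24% of all genes rising and 5.93% falling. Orc1 differed by 1.34 log2 units (SE 0.10, adjusted p = 4.9e-07), Cdc7 by 0.75 (SE 0.08, adjusted p = 1.5e-05) and Cdc6 by 0.57 (SE 0.09, adjusted p = 0.00028). Pold2 fell by 1.12 (SE 0.14, adjusted p = 3.1e-05) and Pold1 by 0.78 (SE 0.14, adjusted p = 0.00052). No ring gene rose: Mcm4, Mcm5, Mcm6 and Mcm7 fell, by 0.31, 0.57, 0.51 and 0.32, and Mcm2 and Mcm3 did not pass the test. Mcm5 was at 48.6, 55.3 and 49.5 FPKM in siControl and at 34.0, 35.4 and 33.9 in siNCOA4+DFO (SE 0.08, adjusted p = 8.7e-05). Mcm10, lower with siNCOA4 and higher with DFO, was at 24.8, 21.0 and 22.2 FPKM with both, overlapping the siControl libraries (log2 difference 0.13, SE 0.11, adjusted p = 0.34). Under the equal-sum scaling, which put the median of all genes at -0.17, 5 members rose and 16 fell.

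The 4 genes of the iron-sulfur fork enzymes did not share a direction. Pold1 and Dna2 fell with DFO alone, as given above, while Pole and Prim2 did not pass the test there. Pole was at 37.9, 30.8 and 30.1 FPKM in siControl, 27.7, 28.3 and 28.4 in siNCOA4, 29.1, 31.1 and 31.1 in siControl+DFO and 31.7, 30.7 and 32.6 in siNCOA4+DFO, and passed the test in none of the comparisons. Prim2, the large primase subunit, was at 28.2, 28.4 and 29.5 FPKM in siControl, 33.0, 32.5 and 27.9 in siNCOA4, 29.2, 29.2 and 35.2 in siControl+DFO and 37.5, 39.0 and 39.7 in siNCOA4+DFO. The siNCOA4+DFO libraries lay above the other 9 libraries, and the difference from siControl was 0.43 log2 units (SE 0.09, adjusted p = 0.0018), a call lost with the equal-sum scaling. Dna2 was at 8.61, 7.62 and 7.63 FPKM in siNCOA4 and at 7.40, 8.34 and 10.5 in siNCOA4+DFO. Both groups overlapped siControl, and each siControl+DFO library lay below the other 9 libraries. Pold1 was at 12.7, 11.7 and 15.5 FPKM in siNCOA4 and at 8.80, 11.4 and 11.6 in siNCOA4+DFO, below all siControl libraries in either group, with adjusted p = 0.054 for siNCOA4 against siControl. Pola1, for which a cluster is disputed, differed between siNCOA4+DFO and siControl by 0.42 (SE 0.11, adjusted p = 0.0090).

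**Figure D5:**
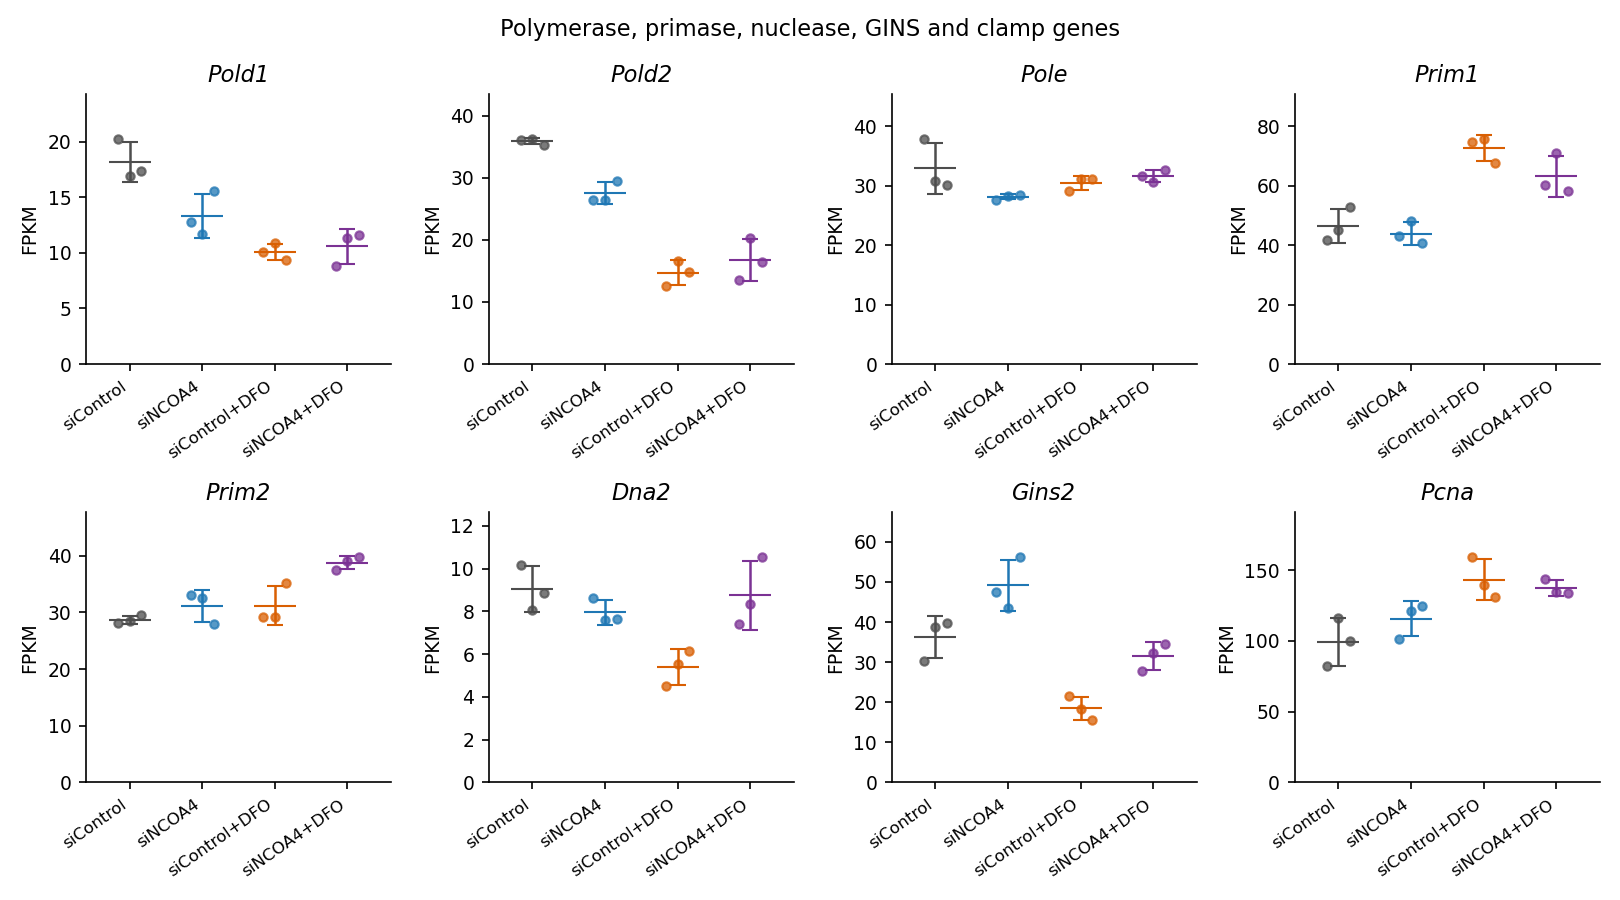
FPKM (y axis, from 0) of Pold1, Pold2, Pole, Prim1, Prim2, Dna2, Gins2 and Pcna in each of the 12 libraries (points, in replicate order within each of the 4 groups), with the group mean (horizontal line) and SD (bars). Pold2 falls from 35.3 to 36.2 in siControl to 12.6 to 16.7 in siControl+DFO, Dna2 and Gins2 are lowest in siControl+DFO, and Prim2 is highest in siNCOA4+DFO.

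Genes of the same pathway outside the 44 were counted in fixed lists. Of 35 other replication factors, 15 rose and 8 fell in siControl+DFO against siControl, 1 rose and 6 fell in siNCOA4 against siControl, 11 rose and 6 fell in siNCOA4+DFO against siNCOA4, 0 rose and 10 fell in siNCOA4+DFO against siControl+DFO, and 12 rose and 11 fell in siNCOA4+DFO against siControl. Over all genes tested, the shares rising and falling were 27.7% and 25.7%, 4.52% and 7.21%, 23.1% and 19.6%, 6.22% and 10.2%, and 25.4% and 23.4% in these comparisons, in that order. Atad5, which unloads PCNA, rose by 1.10 log2 units with DFO alone (adjusted p = 1.3e-06), and Mtbp, a partner of the origin firing factor TICRR, by 1.08 (adjusted p = 3.5e-07). The histone methyltransferase gene Setd8 fell by 1.08 in siNCOA4+DFO against siControl (adjusted p = 1.9e-06), and Rnaseh2a, a subunit of the nuclease that removes RNA primers, fell by 1.51, from 10.5, 12.3 and 17.5 to 4.50, 4.30 and 4.83 FPKM (adjusted p = 1.8e-05). Of 19 tested E2F and S-phase entry regulators, 9 rose and 3 fell with DFO alone, 2 rose and 3 fell with siNCOA4 alone, 8 rose and 2 fell in siNCOA4+DFO against siNCOA4, 1 rose and 4 fell in siNCOA4+DFO against siControl+DFO, and 6 rose and 7 fell in siNCOA4+DFO against siControl. Cdkn1a, the cyclin-dependent kinase inhibitor p21, was at 12.7, 16.2 and 16.1 FPKM in siControl, 49.8, 54.6 and 55.0 in siNCOA4, 435, 467 and 433 in siControl+DFO and 409, 364 and 247 in siNCOA4+DFO, and its interaction was -2.24 (SE 0.22, adjusted p = 0.00087). Ccne2, a cyclin of S phase entry, rose by 1.93 with DFO alone (adjusted p = 2.6e-08), Rb1, which restrains E2F, by 1.52 (adjusted p = 1.5e-06) and Cdc25a, a phosphatase that activates cyclin-dependent kinases, by 1.15 (adjusted p = 4.6e-05). Ccne1, another cyclin of S phase entry, named after its values were seen, fell by 1.31 with siNCOA4 alone (adjusted p = 6.7e-05) and by 0.68 in siNCOA4+DFO against siControl (adjusted p = 0.00071).

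Among 7 iron-sulfur DNA enzymes outside the 44 genes, 1 rose and 2 fell with DFO alone and 2 rose and 1 fell in siNCOA4+DFO against siControl, beside 27.7% and 25.7% of all genes rising and falling with DFO alone and 25.4% and 23.4% with both. With 7 genes, these counts lie near the background. The glycosylase gene Mutyh fell by 1.93 with DFO alone (SE 0.52, adjusted p = 0.0076), at 1.75, 1.80 and 2.99 FPKM without and 0.412, 0.175 and 1.30 with DFO, levels at which the pseudocount weighs. The helicase gene Ddx11 fell by 0.48 (adjusted p = 0.0056), Rev3l, the catalytic subunit of polymerase zeta, rose by 0.41 (adjusted p = 0.0042), and the glycosylase gene Nthl1 rose by 0.83 in siNCOA4+DFO against siControl (adjusted p = 0.012). Of 8 genes that place iron-sulfur clusters into cytosolic and nuclear proteins, Ndor1 alone rose with DFO alone, by 0.52 (adjusted p = 0.030), and Nubp1 alone fell with both treatments, by 0.35 (adjusted p = 0.021).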

How the data were processed

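RNA-seq was analysed in 12 libraries of HT22 cells, grouped and numbered by their labels, with 3 biological replicates per group. Per the labels and the study's methods, libraries were made with a stranded total RNA kit, and the submitters' processing notes name Trimmomatic 0.33, FastQC, HISAT2 2.1.0, featureCounts, edgeR and the build mm10. The authors deposited FPKM values, 1 table per library with 24347 entries; the library size behind them, the annotation and the strand setting are not given in the sources used here. The 4 entries sharing a name were left out, and 6929 of 24343 genes were at 0 in all libraries. Depth per library is unknown from FPKM, so precision rests on the spread between replicates.

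Values were taken as log2(FPKM + 0.1) without further scaling. The pseudocount understates changes of low genes. Median-of-ratios factors lay between 1.00 and 1.01. Genes reaching 0.5 FPKM in 3 or more libraries (11924) were fitted with limma 3.58.1 in R 4.3.3, as a means model over 12 libraries with empirical Bayes moderation and a mean-variance trend (8 residual, 4.07 prior degrees of freedom). Benjamini-Hochberg adjustment was done separately for each comparison. The fit was tested on simulated data. A change of 1 log2 unit was recovered for 89% of such genes in siControl+DFO against siControl and for 63% in the interaction. Of 203 and 169 calls, 15 and 12 were false, in that order. Smaller changes were not simulated. With 3 libraries against 3, an exact permutation test cannot give a two-sided p below 0.1, so none was used.

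All 44 genes are named, with Ncoa4, the iron-sulfur members and, per further list, at most 4 genes with the largest changes in siControl+DFO or siNCOA4+DFO against siControl. Pold4 and Ccne1 were added after their values were seen. The members and lists were chosen with earlier results of these data known. The comparisons with siControl share its 3 libraries. Gene positions and overlaps came from GENCODE M21 on GRCm38 and promoters from RefSeq, read with Python 3.11.15, numpy 2.4.6 and pandas 2.3.3. Figures were drawn with matplotlib 3.10.9. The alternatives tried were pseudocounts of 1 and 0.01, no filter or a filter at 2 FPKM, scaling by median of ratios, quantiles or an equal sum, the replicate number as a term, the compared groups alone, no trend, a fold change above 2, and leaving out each library.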

Additional observations from a re-analysis of the deposited data

Results flagged for a closer look

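The response of Gmnn, which encodes geminin, to DFO differed between siControl and siNCOA4 cells by the test of the interaction. The log2 difference of the 2 responses was -0.482 (SE 0.11, adjusted p = 0.044), with a rise of 0.41 in siControl cells and a difference of -0.07 in siNCOA4 cells. All 3 siControl+DFO libraries lay above all siControl libraries, and the siNCOA4+DFO libraries overlapped those of siNCOA4. Over the alternatives other than leaving out a library the interaction ranged from -0.62 to -0.38 with adjusted p from 0.0089 to 0.091. The call was lost without a filter, with quantile scaling, with a term for the replicate number, without a trend, and when any of 11 of the 12 libraries was left out.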

How the results depend on the processing

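The equal-sum scaling changed the sign of 37 member values over the 6 contrasts, 13 of them in siNCOA4+DFO against siNCOA4; 35 passed the test in neither fit. The other 2 were in that comparison, where Mcm7 went to -0.0083 (adjusted p = 0.94) and Rfc1, which had not passed the test, to -0.258 (adjusted p = 0.025). The shift of all genes given in the report comes with that scaling by its construction. Adding a fold change above 2 left 0 of 5 members in siNCOA4 against siControl, 3 of 26 in siControl+DFO against siControl, 1 of 19 in siNCOA4+DFO against siNCOA4, 0 of 15 in siNCOA4+DFO against siControl+DFO, 2 of 25 in siNCOA4+DFO against siControl and 0 of 1 for the interaction. Without a mean-variance trend, 3 members were called in siNCOA4 against siControl, and fitting the compared groups alone gave 9 in siNCOA4+DFO against siControl+DFO. The interaction had 0 calls without a filter, with quantile scaling, with the replicate block and without a trend, and 2 with the equal-sum scaling; the cause was not tested. Leaving out 1 library gave 3 to 8 calls in siNCOA4 against siControl, the count being 8 without siNCOA4+DFO replicate 3 and 3 without siControl replicate 2 or 3 or siNCOA4 replicate 1 or 2. It gave 8 to 15 in siNCOA4+DFO against siControl+DFO and 0 to 2 for the interaction. The other counts of calls stayed within 1.5 times the values in the report.

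The labels number the replicates and do not say whether libraries of the same number were paired. Deviations of same-numbered libraries correlated at -0.127 to 0.116 across genes, and those of differently numbered libraries at -0.174 to 0.162. With the replicate block, 4 members were called in siNCOA4 against siControl and 27 in siControl+DFO against siControl. FPKM without read totals set no limit of detection, which bears most on Orc3, Orc5 and Dna2.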
